A study of Capra hircus with 9 samples.

Results

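The core genes of the circadian clock were followed across 3 diets in the rumen epithelium of goats, the lining of the largest forestomach. The set is ARNTL, CLOCK, PER1, PER2, PER3, CRY1, CRY2, NR1D1, NR1D2 and DBP, taken as the rows of the expression files that carry these symbols. All 10 symbols were found, among 18383 genes named in the files, and each had a value in all 9 libraries. RNA from goats aged 4 months was sequenced in 3 libraries for each of 3 concentrate diets, labelled HC, MC and LC. The labels do not spell out these letters, give no breed or sex, and do not say that libraries of a diet came from separate animals, so p-values measure only the spread between these samples. Nor do they give the hour of sampling or of feeding. Libraries are named by diet and replicate number, such as LC1. Values are FPKM, fragments per kilobase of transcript scaled to the mapped fragments of the library, so levels of different genes can be set side by side per length. The files hold no read counts, and the depth behind each value is unknown.

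The clock is a feedback loop of transcription that runs in most cells with a period of about a day. ARNTL (also called BMAL1) and CLOCK pair on E-box elements and switch on the PER and CRY genes, whose proteins return to the nucleus and silence the pair. In a second loop NR1D1 and NR1D2, the REV-ERB receptors, repress ARNTL, and ROR receptors compete with them for the same elements. DBP is an output factor that is switched on through E-boxes and acts on D-box elements. Feeding time is known to set such clocks in tissues of the gut and the liver. The levels of most of these transcripts change with the hour, so a level at 1 hour cannot tell phase, amplitude and mean level apart. With no hours in the labels, a difference between diets cannot be told apart from a difference in hour of sampling or feeding.

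Some facts of the libraries touch the comparisons below. Summed FPKM was lowest in LC1 (755624) and 903006 to 1051183 in the other libraries. Genes at 1 FPKM or more were fewest in HC, without overlap. They numbered 10880 to 11051 in HC, 11103 to 11461 in MC and 11314 to 12009 in LC. The cause of this was not tested. Of 8 markers of stratified epithelium 6 were listed, and they summed to between 4306 and 6775 FPKM with overlap between diets. All 7 smooth muscle markers were listed in every library, and their sum was 34.8 FPKM in LC3 and 91.5 to 118 FPKM in HC, but 1229 FPKM in LC2, 2335 FPKM in LC1 and 1124 to 3527 FPKM under MC. The 7 immune cell markers summed to 137 to 153 FPKM in LC and to less elsewhere (40.5 to 40.9 FPKM in MC, 42.9 to 55.9 FPKM in HC), with the B cell marker CD79A not listed in MC1, MC2 and the HC libraries. Fibroblast markers (6 of 6 listed) overlapped between diets, at 119.6 to 508 FPKM. Endothelial markers (4 of 5 listed) summed to 12.7 to 37.7 FPKM in LC, above HC (6.09 to 10.6 FPKM) without overlap and overlapping with MC. None of 3 erythrocyte markers was listed. In bulk tissue, fewer cells of a type and less RNA per cell cannot be told apart. Over 11668 tested genes the median difference was -0.10 on the log2(FPKM + 1) scale in both comparisons of HC, and -0.0067 when MC was set against LC.

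The clock genes did not move as 1 block. The activators ARNTL and CLOCK stood at similar levels under every diet, CRY1 was 3.72-fold as high in MC as in LC, and DBP, PER3 and NR1D1 were lowest in MC. NR1D2 was highest in LC. PER2 was lowest in HC. Log2 differences between diets are on log2(FPKM + 1) throughout, a scale that understates changes of low genes. With limma across all tested genes and Benjamini-Hochberg adjustment, 6 of the 10 clock genes differed among the 3 diets in the F test, where 45.2% of all genes did. In MC minus LC 5 of 10 passed (1 higher, 4 lower in MC), where 33.4% of all genes passed. In HC minus MC 5 of 10 passed (3 higher, 2 lower in HC), where 25.0% of all genes passed. In HC minus LC 2 of 10 passed (0 higher, 2 lower in HC), where 25.2% of all genes passed, so that count is near the background. Among all genes the calls in HC minus LC were 7.79% higher and 17.4% lower, those in MC minus LC 16.2% and 17.1%, and those in HC minus MC 8.00% and 17.0%. The libraries of the 2 diets did not overlap for 5 clock genes in HC minus LC (40.6% of all genes), 5 in MC minus LC (47.1%) and 8 in HC minus MC (46.4%). With median-of-ratios scaling, which sets the median difference near 0, the clock gene calls were 2 higher and 1 lower in HC minus LC, and 4 higher and 2 lower in HC minus MC. With quantile normalization they were 2 higher and 0 lower, and 5 higher and 2 lower. The 3 comparisons share libraries and are not independent of each other.

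**Figure D1:**
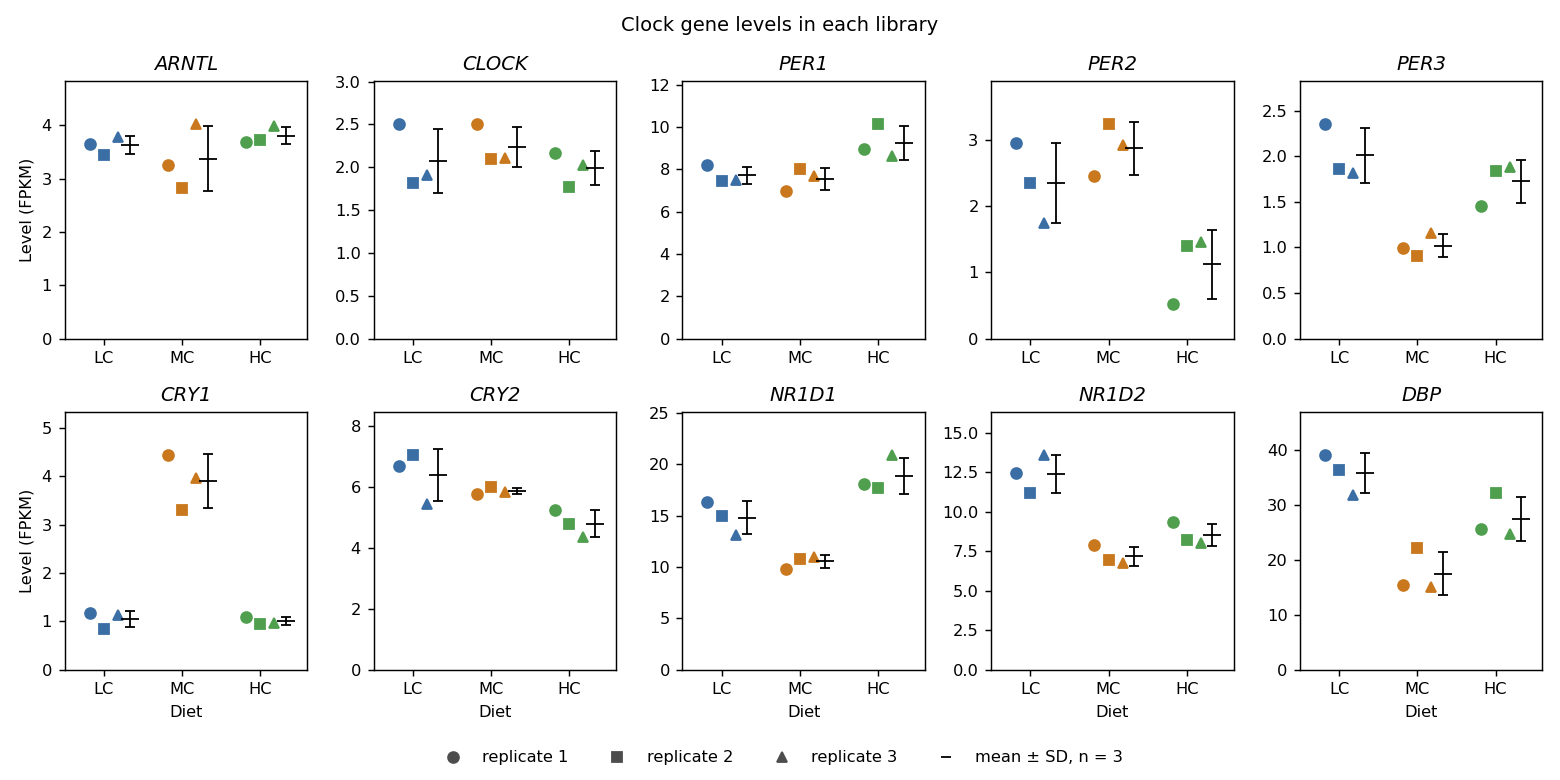
Level of each clock gene in FPKM (vertical axes, from 0) in the 9 libraries by diet, with marker shape giving the replicate number and bars giving mean ± SD over 3 libraries. CRY1 lies at 3.31 to 4.44 FPKM in MC and at 0.852 to 1.17 FPKM in the other diets, while ARNTL and CLOCK overlap in all diets.

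On the level scale DBP was the most abundant clock transcript in every library, at 15.0 to 39.0 FPKM, and NR1D1 followed at 9.84 to 20.9 FPKM in all libraries but LC3, where NR1D2 stood above it. In LC the order by mean was DBP, NR1D1, NR1D2, PER1, CRY2, ARNTL, PER2, CLOCK, PER3 and CRY1. There the ranges of NR1D1 and NR1D2 overlapped, as did those of PER2, CLOCK and PER3, and the other neighbours did not overlap. In MC CRY1 stood above ARNTL, though their libraries overlapped, and PER3 was last. In HC the last places went to PER3, PER2 and CRY1, and the ranges of PER2 and CRY1 overlapped. From the lowest to the highest of the 9 libraries PER2 spanned 6.22-fold and CRY1 5.21-fold, whereas CLOCK spanned 1.41-fold, ARNTL 1.43-fold and PER1 1.46-fold. The median span over all tested genes was 1.997-fold.

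ARNTL (chromosome 15, 37573928 to 37654397), the indispensable activator of the loop, read 3.66, 3.44 and 3.77 FPKM in LC1, LC2 and LC3. It read 3.26, 2.82 and 4.02 FPKM in MC1, MC2 and MC3, and 3.69, 3.72 and 3.98 FPKM in HC1, HC2 and HC3. The 3 diets overlapped, and both the lowest and the highest library were of MC. The log2 difference was -0.09 in MC minus LC (95% interval -0.37 to 0.19, limma adjusted p = 0.622), 0.055 in HC minus LC (-0.22 to 0.33, adjusted p = 0.78) and 0.14 in HC minus MC (-0.13 to 0.42, adjusted p = 0.421). These intervals bound any difference to well under 1 on the log2 scale.

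CLOCK (chromosome 6, 68993315 to 69120322), the partner of ARNTL, read 2.50, 1.82 and 1.91 FPKM in LC1, LC2 and LC3. It read 2.50, 2.09 and 2.10 FPKM in MC1, MC2 and MC3, and 2.17, 1.77 and 2.02 FPKM in HC1, HC2 and HC3. The diets overlapped, and within each of them replicate 1 was the highest. The log2 difference was 0.075 in MC minus LC (95% interval -0.22 to 0.37, limma adjusted p = 0.708), -0.038 in HC minus LC (-0.33 to 0.26, adjusted p = 0.861) and -0.11 in HC minus MC (-0.41 to 0.18, adjusted p = 0.57). Of the activators' paralogues in the wider list below, ARNTL2 was listed in 3 libraries only, at 0.0328 to 0.0714 FPKM.

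The cryptochromes, the repressors that bind the ARNTL and CLOCK pair most directly, behaved differently from each other. CRY1 (chromosome 5, 68148247 to 68237658) read 1.17, 0.852 and 1.12 FPKM in LC1, LC2 and LC3, and 1.096, 0.949 and 0.975 FPKM in HC1, HC2 and HC3. In MC1, MC2 and MC3 it read 4.44, 3.31 and 3.96 FPKM. Every MC library stood above every other library, and LC and HC overlapped. The mean was 3.903 ± 0.566 FPKM in MC, 1.05 ± 0.174 FPKM in LC and 1.01 ± 0.0785 FPKM in HC (SD, n = 3). CRY1 rose by 1.25 ± 0.14 (SE) on the log2(FPKM + 1) scale in MC against LC (3.72-fold in mean FPKM, limma adjusted p = 5.84e-05). Against MC it fell by 1.28 ± 0.14 in HC (limma adjusted p = 1.56e-04), and HC minus LC was -0.028 (95% interval -0.33 to 0.27, adjusted p = 0.898).

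CRY1 had the smallest F-test p of the 10 genes (limma adjusted p = 4.94e-05), and both of its calls held under all 20 alternatives that could be run for it. Smooth muscle markers in LC1 and LC2 were within the range of the MC libraries, and CRY1 in these LC libraries was 1.17 and 0.852 FPKM, on either side of LC3. With LC3 left out, the MC and LC libraries compared all had high smooth muscle markers, and the difference was 1.28 ± 0.16 (limma adjusted p = 2.22e-04, 3.37e-06 to 0.0031 over its alternatives). The part of smooth muscle in the level of CRY1 was not tested further.

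CRY2 (chromosome 15, 72162811 to 72198256) read 6.67, 7.03 and 5.41 FPKM in LC1, LC2 and LC3. It read 5.75, 5.97 and 5.83 FPKM in MC1, MC2 and MC3, and 5.22, 4.79 and 4.35 FPKM in HC1, HC2 and HC3. HC lay below both other diets without overlap, and MC lay inside the range of LC. The difference did not pass the test in HC minus LC (log2 -0.35 ± 0.12, limma adjusted p = 0.0561), HC minus MC (-0.25 ± 0.12, adjusted p = 0.152) or MC minus LC (-0.099 ± 0.12, adjusted p = 0.567). As for PER2 below, the 4 lowest libraries were those with the lowest smooth muscle markers, HC and LC3. HC minus LC was -0.24 with these markers as a covariate (limma adjusted p = 0.287), -0.15 against LC3 alone (adjusted p = 0.587) and -0.44 without LC3 (adjusted p = 0.0329, 8.07e-04 to 0.587 over its alternatives). HC minus MC was -0.046 ± 0.19 with the covariate (limma adjusted p = 0.911). All HC libraries were low and all MC libraries high in these markers, so the covariate also raises the SE of HC minus MC. The part of smooth muscle in these differences was not tested further.

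Within a library the ratio of 2 genes does not depend on how that library was scaled. Log2 ratios between genes are of FPKM as given, with nothing added. The log2 ratio of CRY1 to CRY2 was -0.37, -0.85 and -0.56 in MC1, MC2 and MC3. It ran from -3.04 to -2.27 in LC and from -2.33 to -2.16 in HC. CRY1 was thus below CRY2 in every library, by the least in MC, and MC overlapped with neither diet.

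**Figure D2:**
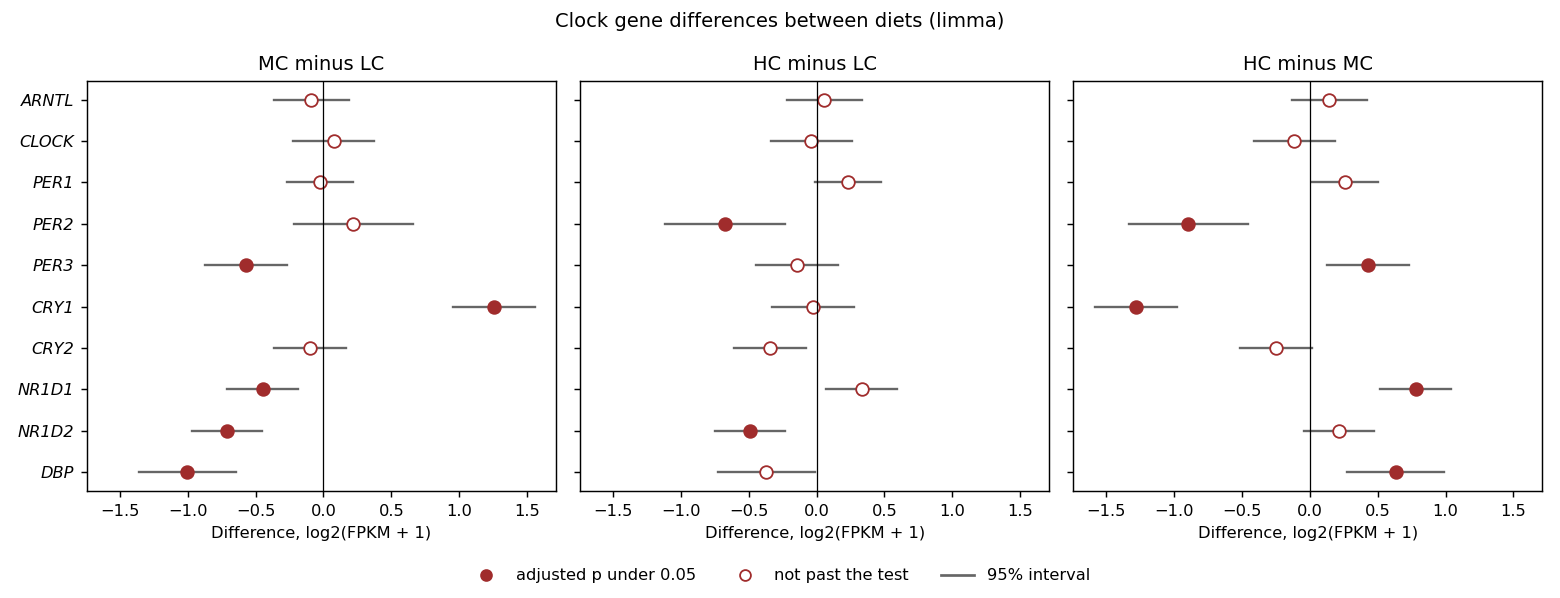
Difference between diets in log2(FPKM + 1) for each clock gene (horizontal axes) in MC minus LC, HC minus LC and HC minus MC, with 95% intervals from limma. Filled points passed an adjusted p of 0.05, which holds for 5 genes in MC minus LC, 2 in HC minus LC and 5 in HC minus MC.

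The period genes encode the partners of the cryptochromes in the repressing complex, and each had its own pattern. PER1 (chromosome 19, 27004928 to 27016843), which is also an immediate early gene, read 8.20, 7.46 and 7.50 FPKM in LC1, LC2 and LC3. It read 6.96, 7.99 and 7.71 FPKM in MC1, MC2 and MC3, and 8.96, 10.1 and 8.62 FPKM in HC1, HC2 and HC3. The HC libraries were the 3 highest and overlapped with neither diet, but no difference passed the test. The log2 difference was 0.23 ± 0.11 in HC minus LC (limma adjusted p = 0.149), 0.26 ± 0.11 in HC minus MC (adjusted p = 0.107) and -0.028 ± 0.11 in MC minus LC (adjusted p = 0.871). With median-of-ratios scaling, which takes off the general shift of HC, PER1 was higher in HC than in LC (0.34, limma adjusted p = 0.0449, 0.0243 to 0.364 over its alternatives) and than in MC (0.37, adjusted p = 0.0358, 0.0236 to 0.333 over its alternatives).

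PER2 (chromosome 3, 113904198 to 113932978), the period gene most tied to clock phase in tissues, read 2.95, 2.35 and 1.74 FPKM in LC1, LC2 and LC3. It read 2.45, 3.24 and 2.92 FPKM in MC1, MC2 and MC3, and 0.521, 1.40 and 1.45 FPKM in HC1, HC2 and HC3. The HC libraries were the 3 lowest, HC1 far under the others, and LC and MC overlapped. PER2 fell by 0.89 ± 0.20 on the log2(FPKM + 1) scale in HC against MC (0.39-fold in mean FPKM, limma adjusted p = 0.00871). It fell by 0.67 ± 0.20 in HC against LC (0.48-fold, limma adjusted p = 0.0307). MC minus LC was 0.22 (95% interval -0.22 to 0.66, limma adjusted p = 0.434).

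The 4 libraries with the lowest smooth muscle marker sums, LC3 and the HC libraries, were the 4 with the least PER2. Among these 4, LC3 had the lowest sum (34.8 FPKM) but the most PER2. Within HC and within LC the order of PER2 was that of the marker sums. Within MC it was not, since MC3 had the lowest sum but MC1 the least PER2. The part of smooth muscle in the level of PER2 was not tested beyond the following values. With the mean of these markers as a covariate the limma adjusted p of PER2 was 0.262 in HC minus MC (log2 -0.53 ± 0.28, 6.56e-04 to 0.262 over its alternatives). It was 0.157 in HC minus LC (-0.47 ± 0.22). Against LC3 alone, the LC library whose markers are as low as in HC, HC minus LC was -0.40 (adjusted p = 0.384, 0.0173 to 0.384 over its alternatives). The call in HC minus LC was also lost without LC1 (adjusted p = 0.0906), LC2 (0.0709) or HC1 (log2 -0.45, 0.0931), in a fit of HC and LC only (0.0608), with median-of-ratios scaling (0.054) and with quantile normalization (-0.43, 0.161).

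PER3 (chromosome 16, 43102110 to 43169488), the period gene least needed for rhythm, read 2.35, 1.86 and 1.82 FPKM in LC1, LC2 and LC3. It read 0.999, 0.902 and 1.16 FPKM in MC1, MC2 and MC3, and 1.45, 1.84 and 1.88 FPKM in HC1, HC2 and HC3. The MC libraries were the 3 lowest, and LC and HC overlapped. PER3 fell by 0.57 ± 0.14 on the log2(FPKM + 1) scale in MC against LC (0.51-fold in mean FPKM, limma adjusted p = 0.0081). It rose by 0.43 ± 0.14 in HC against MC (1.69-fold, limma adjusted p = 0.0415). HC minus LC was -0.14 (95% interval -0.45 to 0.16, limma adjusted p = 0.479). In HC minus MC the adjusted p lay between 0.0545 and 0.141 without any 1 of LC2, MC1, MC2, MC3, HC2 or HC3, and it was 0.147 with the smooth muscle covariate, where the difference was 0.53 and its SE 0.22. In MC minus LC the call was lost against LC3 alone (-0.48, limma adjusted p = 0.103, 0.0017 to 0.103 over its alternatives).

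PER2 and PER3 stood in opposite order under MC and HC. The log2 ratio of PER2 to PER3 within a library was 1.296 to 1.85 in MC, -0.059 to 0.34 in LC and -1.48 to -0.37 in HC, with no overlap between diets. PER2 exceeded PER3 in every MC library and lay below it in every HC library.

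The REV-ERB receptors, haem-binding repressors of ARNTL, also parted. NR1D1 (chromosome 19, 39566696 to 39574425) read 16.3, 15.0 and 13.1 FPKM in LC1, LC2 and LC3. It read 9.84, 10.8 and 11.0 FPKM in MC1, MC2 and MC3, and 18.1, 17.7 and 20.9 FPKM in HC1, HC2 and HC3. The diets did not overlap, with MC lowest and HC highest. NR1D1 rose by 0.78 ± 0.12 on the log2 scale in HC against MC (limma adjusted p = 0.00116), from 10.5 ± 0.624 to 18.9 ± 1.74 FPKM (SD, n = 3), and fell by 0.45 ± 0.12 in MC against LC (adjusted p = 0.0135). HC minus LC was 0.33 ± 0.12 (limma adjusted p = 0.0613). It passed without LC1 (0.40, adjusted p = 0.0361, 4.63e-04 to 0.224 over its alternatives) and with median-of-ratios scaling (0.45, adjusted p = 0.0169). The call in MC minus LC was lost without MC1 (-0.40, limma adjusted p = 0.0583) and against LC3 alone (-0.29, adjusted p = 0.229, 0.00346 to 0.229 over its alternatives).

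NR1D2 (chromosome 27, 40479949 to 40499209) read 12.4, 11.2 and 13.6 FPKM in LC1, LC2 and LC3. It read 7.88, 6.93 and 6.78 FPKM in MC1, MC2 and MC3, and 9.34, 8.25 and 7.997 FPKM in HC1, HC2 and HC3. LC was highest without overlap, and MC lay just below HC. NR1D2 fell by 0.71 ± 0.12 on the log2 scale in MC against LC (limma adjusted p = 8.81e-04) and by 0.49 ± 0.12 in HC against LC (adjusted p = 0.0107), and HC minus MC was 0.22 ± 0.12 (adjusted p = 0.193). The immune cell markers were likewise highest in LC, and their part in this was not tested. Without HC3 the adjusted p of HC minus LC was 0.0521 (limma, log2 -0.45, 3.21e-04 to 0.0525 over its alternatives), and it was 0.0525 with quantile normalization.

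The log2 ratio of NR1D1 to NR1D2 within a library was 0.95 to 1.39 in HC, 0.32 to 0.699 in MC and -0.053 to 0.42 in LC. HC stood above both other diets, and LC3 was the one library with less NR1D1 than NR1D2.

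DBP (chromosome 18, 53709112 to 53714469), the factor through which the loop drives many output genes, read 39.0, 36.2 and 31.8 FPKM in LC1, LC2 and LC3. It read 15.4, 22.1 and 15.0 FPKM in MC1, MC2 and MC3, and 25.6, 32.0 and 24.7 FPKM in HC1, HC2 and HC3. MC was lowest without overlap, and LC and HC overlapped through HC2 and LC3. DBP fell by 1.004 ± 0.16 on the log2 scale in MC against LC (limma adjusted p = 7.81e-04), from 35.7 ± 3.62 to 17.5 ± 3.96 FPKM (SD, n = 3), and rose by 0.63 ± 0.16 in HC against MC (adjusted p = 0.0167). HC minus LC was -0.37 ± 0.16 (limma adjusted p = 0.117). It passed under 2 of 21 alternatives, array quality weights (-0.46, limma adjusted p = 0.0061) and the replicate block (-0.37, adjusted p = 0.0422).

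The fall of DBP in MC held under all 21 alternatives, with limma adjusted p between 1.70e-04 and 0.0326. Its rise in HC against MC was lost without MC1 (adjusted p = 0.071), MC3 (0.059) or HC2 (0.0679). The log2 ratio of DBP to ARNTL, an output of the loop to its activator, was 3.08 to 3.42 in LC, 2.63 to 3.10 in HC and 1.90 to 2.97 in MC. LC and HC met at the edge of their ranges, and MC2 lay inside the range of HC.

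**Figure D3:**
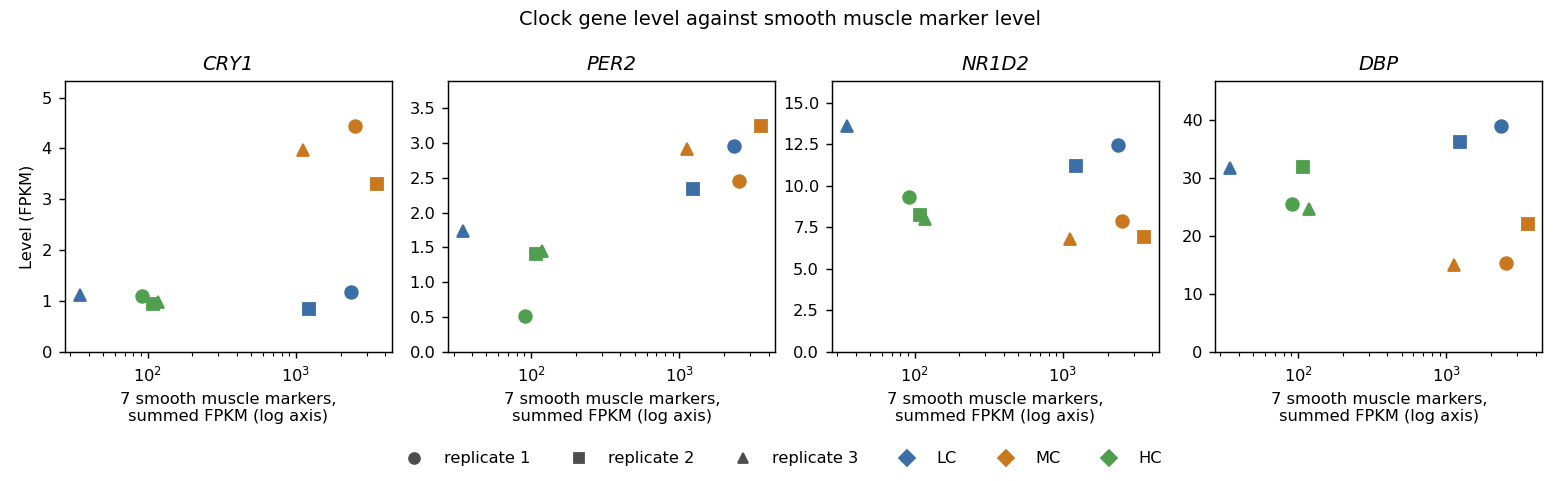
Level of CRY1, PER2, NR1D2 and DBP in FPKM (vertical axes, from 0) against the summed FPKM of 7 smooth muscle markers (log axis) in the 9 libraries, coloured by diet. PER2 is lowest in the 4 libraries with the lowest marker sums, while CRY1 is high in MC and low in LC1 and LC2, whose marker sums are 2335 and 1229 FPKM.

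Other genes that act in or on the loop were taken from a list of 27, of which 24 were named in the files and 22 were tested. In MC minus LC 2 of the 22 rose and 7 fell, 13 did not pass, with a median log2 difference of -0.28 against -0.0067 over all genes, of which 33.4% were called. In HC minus LC 2 rose, 5 fell and 15 did not pass, with a median of -0.079 against -0.10, where 25.2% of all genes were called. In HC minus MC 3 rose, 0 fell and 19 did not pass, with a median of 0.11 against -0.10, where 25.0% of all genes were called. The share called was near the background in MC minus LC and in HC minus LC, and below it in HC minus MC. The median of the 10 clock genes was -0.094, -0.090 and 0.18 in the same 3 comparisons.

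RORA, a ROR receptor, activates ARNTL in competition with the REV-ERBs. RORA averaged 3.505 ± 0.349 FPKM under MC, below LC (5.05 ± 1.01 FPKM) and HC (5.35 ± 0.221 FPKM), and passed in MC minus LC (log2 -0.42, limma adjusted p = 0.0342) and HC minus MC (0.4985, adjusted p = 0.0212). With the smooth muscle covariate both RORA calls were lost (log2 -0.27 ± 0.14 and 0.19 ± 0.19, limma adjusted p = 0.149 and 0.582). The first was also lost without LC3, MC1, MC2 or HC3 (0.0509 to 0.144) and the second without MC1, MC2, HC2 or HC3.

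TEF and HLF are relatives of DBP that bind the same D-box elements, and NFIL3 is the repressor that competes with them. TEF, like DBP, was lowest in MC, at 23.7 ± 2.26 FPKM against 34.99 ± 0.78 FPKM in LC (log2 -0.55, limma adjusted p = 0.00447) and 32.6 ± 2.89 FPKM in HC (0.45 in HC minus MC, adjusted p = 0.0195). The 3 MC libraries of TEF, at 21.4 to 25.9 FPKM, overlapped with no library of the other diets. The call in HC minus MC was lost without MC1, MC2, HC2 or HC3 (limma adjusted p 0.0612 to 0.0867) and with the smooth muscle covariate (0.171, at the same log2 difference of 0.45 with a larger SE of 0.196 against 0.12), and that in MC minus LC against LC3 alone (0.0593). HLF was lower in HC than in LC (2.36 and 3.77 FPKM, log2 -0.52, limma adjusted p = 0.0465) and NFIL3 higher (12.7 and 9.06 FPKM, 0.46, adjusted p = 0.0446). Both of these calls stood close to the threshold and were lost under 14 of 20 and 11 of 21 alternatives.

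Among repressors that act at E-boxes, BHLHE40 was highest in LC, at 64.4 ± 10.7 FPKM, and fell to 28.1 ± 2.34 FPKM under MC (log2 -1.16, limma adjusted p = 2.53e-04) and 30.9 ± 5.08 FPKM under HC (-1.03, adjusted p = 8.50e-04). Its locus in the files also holds ITPR1, so the value is uncertain. BHLHE41 was lower in MC than in LC (20.3 and 27.2 FPKM, log2 -0.41, limma adjusted p = 0.0252), a call that was lost without LC2, LC3, MC1 or MC2 (0.0625 to 0.108), with the smooth muscle covariate (0.0701) and against LC3 alone (0.115). CIART, a repressor of the ARNTL and CLOCK pair, rose in MC to 8.06 ± 0.298 FPKM, against 5.37 ± 0.535 FPKM for LC (0.51, adjusted p = 0.00518), with HC between at 6.84 ± 0.631 FPKM.

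Of the enzymes that act on clock proteins, the deubiquitinase USP2 is itself a known clock output. The HC libraries of USP2 lay at 14.2 to 17.6 FPKM, those of MC at 9.09 to 12.3 FPKM and those of LC at 4.72 to 5.05 FPKM, with no overlap between diets. It rose by 1.53 ± 0.13 on the log2 scale in HC against LC (limma adjusted p = 1.69e-05), by 0.92 ± 0.13 in MC against LC (adjusted p = 3.39e-04) and by 0.61 ± 0.13 in HC against MC (adjusted p = 0.00699). The last of these was lost with the smooth muscle covariate (0.51 ± 0.21, limma adjusted p = 0.149), where the SE was larger. SIRT1, a deacetylase that acts on PER2 and ARNTL, fell in both comparisons with LC (log2 -0.63 in MC and -0.69 in HC), though its locus holds a further unnamed gene model. The kinase genes CSNK1D (25.2 to 27.3 FPKM by diet mean) and GSK3B (8.86 to 9.80 FPKM) passed in no comparison, and the value of CSNK1D is uncertain because its locus also holds SLC16A3.

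**Figure D4:**
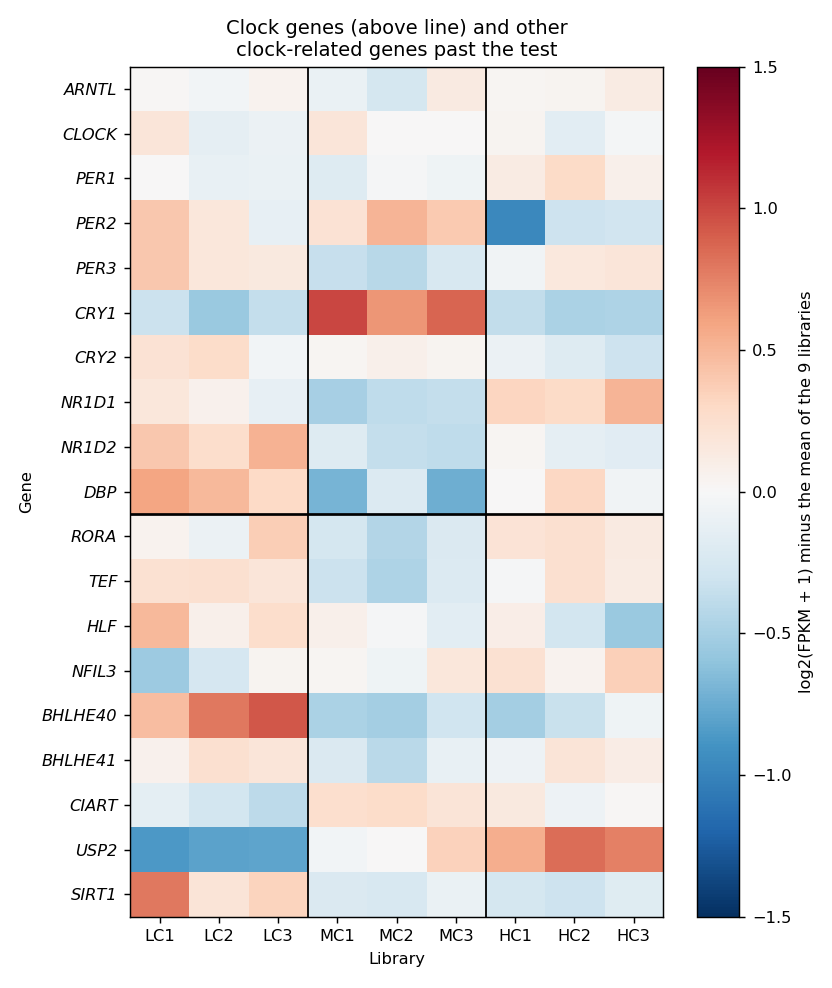
Log2(FPKM + 1) of each gene minus its mean over the 9 libraries (colour, red above and blue below) for the 10 clock genes and 9 other clock-related genes past the test in at least 1 comparison. MC stands out by high CRY1 and low DBP, NR1D1, PER3 and TEF, LC by low USP2 and high NR1D2 and BHLHE40.

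Lists of genes that respond to signals from outside the loop were also counted. Of 10 tested immediate early genes, the fast targets of growth and stress signals, 6 rose and 0 fell in HC minus LC, 4 rose and 2 fell in MC minus LC, and 5 rose and 1 fell in HC minus MC. Of all genes, 7.79% were called higher and 17.4% lower in HC minus LC, 16.2% and 17.1% in MC minus LC, and 8.00% and 17.0% in HC minus MC. FOS was highest in HC, at 42.5 ± 3.89 FPKM, with 16.7 ± 1.83 FPKM under MC and 9.65 ± 2.17 FPKM under LC, and FOSB, FOSL1 and ATF3 rose in both comparisons with LC. JUN and EGR1 rose in HC against LC and against MC, while JUNB and IER3 were lower in MC than in either diet. Of 9 tested glucocorticoid-responsive genes 2 rose and 2 fell in HC minus LC, 2 rose and 3 fell in MC minus LC, and 2 rose and 0 fell in HC minus MC. The calls over all genes were 25.2%, 33.4% and 25.0% in that order, and the count in HC minus MC is no higher than that share. SGK1 and ERRFI1 rose in both comparisons with LC, and ZBTB16 fell in both, while TSC22D3 fell in HC minus LC and PDK4 and the receptor gene NR3C1 in MC minus LC. In HC minus MC the rises were ERRFI1 and NR3C1. The other tested members, FKBP5, KLF9 and DUSP1, passed in no comparison.

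For the 4 clock genes with the smallest F-test p, the tested genes of most similar profile were sought by the root mean square difference of mean-centred log2(FPKM + 1) over the 9 libraries. The closest to CRY1 were GCLC, a subunit of the enzyme that starts glutathione synthesis (0.092 log2 units), and the nucleolar helicase DDX21 (0.1046 log2 units). GCLC stood at 15.2 ± 2.37 FPKM under MC, with LC at 5.53 ± 0.579 FPKM and HC at 5.31 ± 0.241 FPKM. The closest to NR1D1 were RNF19B (0.079 log2 units) and DUSP15 (0.096 log2 units). For DBP they were the CCAAT-binding subunit NFYC (0.076 log2 units) and the acetyl-CoA carboxylase ACACB (0.12 log2 units), and for NR1D2 they were UHRF1BP1L (0.0601 log2 units) and the mitochondrial superoxide dismutase SOD2 (0.072 log2 units). These distances describe a likeness of profile over these libraries only. They are on a scale that understates changes of low genes such as CRY1, so genes that are alike can differ in fold change.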

How the data were processed

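Per the submitters' processing notes the authors used Bowtie 1.2.0 and Cufflinks 2.2.1, and the deposited values were read as FPKM from that tool and from their size, since no label states the unit. The build, annotation and strand were not given in the sources used here. Starts in the files count from 0, as lengths of mitochondrial genes showed, and were raised by 1. Chromosome names come from RefSeq (ARS1.2). Locus lines whose names had become spreadsheet dates (18 to 21 in MC and LC files, 0 in HC files) were left out, and repeated symbols were summed.

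Genes reaching 1 FPKM in 3 or more libraries (11879), and listed in all of them (211 were not), were tested on log2(FPKM + 1), a scale that understates changes of low genes. One fit of all 9 libraries used limma 3.58.1 in R 4.3.3 with trend and robust moderation, two-sided, at an adjusted p of 0.05. No clock gene fell to the filter, so the exact permutation test planned for such genes was not needed. The fit was tested on simulated data with the gene spreads of these libraries. With no change, 0 genes were called in HC minus LC. With 200 genes raised in HC by 0.5, 1 or 2 on the log2 scale, 7%, 74% and 99.5% of them were called. Calls among the unchanged genes were 0, 9 and 8. Small differences that did not pass can thus be real ones. Fewer genes were changed there than were called in these data. Alternatives changed the pseudocount, filter, scaling, moderation, weights, threshold, replicate block and libraries; the smooth muscle covariate and LC3 alone for LC were chosen after seeing the data. In the fit with LC3 alone, the lone library is assumed to vary like the other diets. The named genes are the 10 clock genes, members of the wider list past the test (some are counted in the list but not reported here by name), members past the test of 2 signal lists and the 2 most alike genes of 4 clock genes. FKBP5, KLF9, DUSP1, CSNK1D, GSK3B, ARNTL2 and RORB fall outside that rule and were named after their values were seen. Members and lists were chosen with earlier results of these data known. Figures used Python 3.11.15 and matplotlib 3.10.9.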

Additional observations from a re-analysis of the deposited data

How the results depend on the processing

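Of 12 calls of clock genes over the 3 comparisons, 5 were kept under every alternative run (CRY1 in MC minus LC and HC minus MC, NR1D1 in HC minus MC, NR1D2 and DBP in MC minus LC), 7 were lost under at least 1 and none was reversed. With a filter of 5 FPKM, which only 5 clock genes pass, 1, 3, 2 and 3 clock genes were called in HC minus LC, MC minus LC, HC minus MC and the F test, and 1908 genes in HC minus LC. At a threshold of 0.01 the calls were 1404 genes and 0 clock genes in HC minus LC, 2261 genes in MC minus LC, 1246 genes, 3 clock genes and 1 other clock-related gene in HC minus MC, and 2925 genes in the F test. Array quality weights gave 5889, 6590 and 8711 genes in HC minus LC, HC minus MC and the F test, 5 clock genes in HC minus LC, and 15 and 12 other clock-related genes in MC minus LC and HC minus MC. Median-of-ratios scaling and quantile normalization each gave 6 other clock-related genes in HC minus MC, and a fit of HC and LC only gave 1 clock gene in HC minus LC. All genes called in HC minus LC split into 909 higher and 2030 lower, against 1494 and 1329 with median-of-ratios scaling, and those in HC minus MC into 933 and 1984, against 1513 and 1319.

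The smooth muscle covariate, chosen after seeing the data, gave 1 clock gene in HC minus LC, and 979 genes, 3 clock genes and 0 other clock-related genes in HC minus MC. LC3 alone for LC, also chosen then, gave 1379 genes, 1 clock gene and 3 other clock-related genes in HC minus LC, and 2322 genes and 3 clock genes in MC minus LC. Leaving out 1 library gave 1 to 3 clock genes in HC minus LC (1 without LC2, HC1 or HC3), 4 to 5 in MC minus LC, 3 to 5 in HC minus MC (3 without MC1, MC3 or HC2) and 5 to 7 in the F test. It gave 1769 to 2811, 2838 to 4043, 1619 to 4066 and 3988 to 5901 genes in the same order, and 5 to 6, 7 to 10 and 1 to 5 other clock-related genes in the 3 comparisons. The labels do not say whether libraries with the same replicate number share an animal, batch or day. Deviations of same-numbered libraries correlated across genes at -0.076 to 0.504, so not every pair was over 0.1. As a hint from the data, 7 of 9 libraries correlated best with a library of their own number, and MC2 and HC2 did not. In each other diet 1 of 3 libraries carries the same number, so some such matches arise without any pairing. The matches of MC1 with HC1 and of LC3 with MC3 are mutual and count for both libraries. With the replicate as a block 3751, 4613, 3871 and 6418 genes were called in HC minus LC, MC minus LC, HC minus MC and the F test, against 2939, 3894, 2917 and 5274 without it. Then 4 clock genes were called in HC minus LC, CRY2 (limma adjusted p = 0.0384) and DBP (0.0422) being added. The cause of these shifts was not tested. Read depth is unknown, so no counting error can be given for levels near 1 FPKM, such as those of CRY1 and PER3.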

Other observations

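RORB, the ROR receptor known mainly from brain and retina, was under the filter in every library and was not tested. It read 0.0319, 0.0112 and 0.00649 FPKM in LC1, LC2 and LC3, against 0.179, 0.203 and 0.156 FPKM in MC1, MC2 and MC3 and 0.144, 0.274 and 0.207 FPKM in HC1, HC2 and HC3. All 6 libraries of MC and HC stood above the 3 of LC, at levels where FPKM without read counts gives no measure of precision.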
